A study of Caenorhabditis elegans with 2 samples.

Results

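Of 1841 reproducible COG-1 binding regions on all chromosomes, 1414 were autosomal, and 236 of these lay in distal intergenic sequence, away from annotated exons and from the starts of protein-coding genes. A region was counted as distal when its summit, the position of highest enrichment, met 3 conditions. It lay in no window of 1000 bp upstream to 500 bp downstream of a protein-coding gene start, in no exon of any gene and in no protein-coding gene body of the Ensembl annotation of WBcel235, the same build as ce11. No signal value entered the choice beyond the authors' own reproducibility list. The other 1178 autosomal regions, to which the distal peaks were compared, divided into 826 in gene-start windows, 225 in introns and 127 in exons.

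The data came from chromatin immunoprecipitation with sequencing of Caenorhabditis elegans strain OP541, which carries unc-119(tm4063) III and the transgene wgIs541. The transgene gives a line stably expressing COG-1 with a C-terminal GFP-FLAG tag, and the precipitating antibody recognised GFP. Whole hermaphrodite mid-embryos were collected 3 hours after synchronization by egg bleaching, as 2 biological replicates forming 1 group. An input or untagged library was not analysed here, so no value below has a background measured without the tagged protein, and binding in individual embryonic cell types cannot be told apart.

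COG-1 belongs to the NK6 family of homeodomain regulators and is best known in C. elegans for its part in the left-right difference of a pair of taste neurons and in development of the vulva and uterus. Homeodomain proteins commonly recognise short AT-rich sequence with a TAAT core. Most C. elegans regulatory sequence lies close to gene starts, and regulatory elements farther away act as distal enhancers or as promoters of genes that do not code for protein. Small nucleolar RNAs (snoRNAs) guide chemical modification of ribosomal RNA, and some are transcribed by RNA polymerase III from internal or upstream promoter boxes of the kind found in tRNA genes. GA-rich sequence is bound by zinc finger proteins such as the GAGA factor of Drosophila.

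The windows below were read from the RefSeq copy of WBcel235, plus strand, with 50 bp to each side of the summit. The 3 windows shown next are among the 20 strongest distal peaks and held GAGAGA, the sequence that differed between these summits and other peaks. Capitals mark GAGAGA or its reverse complement TCTCTC.
mtm-3/xbx-5, chrIII:3801500-3801600: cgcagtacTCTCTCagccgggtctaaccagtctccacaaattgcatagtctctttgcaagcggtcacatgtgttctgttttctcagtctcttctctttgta
sgn-1/F07H5.13, chrII:8787554-8787654: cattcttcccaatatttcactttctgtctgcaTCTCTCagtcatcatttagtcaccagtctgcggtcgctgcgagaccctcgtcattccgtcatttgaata
C33D9.6/C33D9.13, chrIV:8782347-8782447: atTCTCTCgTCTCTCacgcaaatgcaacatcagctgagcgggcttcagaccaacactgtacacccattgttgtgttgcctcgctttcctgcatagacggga

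The next 5 windows are summits just upstream of snoRNA genes, among the 20 strongest distal peaks. Of the 15 snoRNA genes near distal peaks, 7 had neither of the sequences marked here in the 150 bases before their start, and the H09I01.2 window holds neither. Capitals mark GTTCGA, the core of the B box of RNA polymerase III promoters, and TGGCNNAG, a core of the A box, on either strand.
upstream of W03C9.9, chrII:11960747-11960847: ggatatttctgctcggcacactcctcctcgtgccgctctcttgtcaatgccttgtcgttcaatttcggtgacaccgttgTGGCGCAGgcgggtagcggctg
upstream of H09I01.2, chrIV:8252991-8253091: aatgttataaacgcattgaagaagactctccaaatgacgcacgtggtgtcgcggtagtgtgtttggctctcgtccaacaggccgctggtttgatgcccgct
upstream of T06C12.16, chrV:15873932-15874032: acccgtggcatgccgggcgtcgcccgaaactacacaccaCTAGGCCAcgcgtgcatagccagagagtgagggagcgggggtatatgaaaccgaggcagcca
upstream of F30H5.4, chrIII:502745-502845: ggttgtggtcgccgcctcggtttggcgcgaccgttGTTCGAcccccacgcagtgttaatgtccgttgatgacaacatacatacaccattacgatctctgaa
upstream of F32E10.10, chrIV:7574041-7574141: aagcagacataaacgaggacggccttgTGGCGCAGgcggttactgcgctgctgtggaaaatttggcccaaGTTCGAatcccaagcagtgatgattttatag

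The last 2 windows are the strongest distal summits with TTAATTA, the sequence usually given for NK6 homeodomains; capitals mark it on either strand, and in the second window a pair of matches overlaps.
txt-14/grdn-1, chrV:18589664-18589764: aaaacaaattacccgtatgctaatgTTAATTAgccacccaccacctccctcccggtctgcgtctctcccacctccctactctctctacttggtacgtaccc
cki-1/cki-2, chrII:7814416-7814516: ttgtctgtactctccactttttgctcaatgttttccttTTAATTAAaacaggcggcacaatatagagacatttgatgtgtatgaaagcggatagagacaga

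The homeodomain sequences were rare at distal summits. TTAATTA was within 50 bp of the summit in 4 of 236 distal peaks (1.69%, 95% exact interval 0.464 to 4.28) and in 18 of 1178 other autosomal peaks (1.53%). In the distal peaks' own flanks, windows of the same length centred 400 bp from the summit, 5 of 236 held it, and 2.92% of all windows in sequence open to the location rule did. The shorter TAATTA, which every TTAATTA match contains, was in 9 distal summit windows (3.81%), 32 windows of other peaks (2.72%) and 12 flank windows, against 5.21% of open windows. Neither sequence passed against other peaks or against the flanks at the threshold of 0.05 after Benjamini-Hochberg adjustment over the 10 sequences searched, and the open windows were not tested. Fisher's exact test against other peaks gave an adjusted p of 0.968 for TTAATTA and 0.655 for TAATTA. A match shows only that the letters are present in the window.

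GAGAGA was the sequence that separated distal summits from other peaks. It was found in 119 of 236 distal summit windows (50.4%, 95% exact interval 43.9 to 57.0) and in 304 of 1178 windows of other autosomal peaks (25.8%, 23.3 to 28.4), a ratio of 1.95 (2-sided Fisher's exact test, adjusted p = 3.48e-12 over 10 sequences). The 10 sequences were chosen with earlier results of these data known, a choice that the adjustment does not cover. In the flanks of the same distal peaks 10 windows held it (4.24%). Of the distal peaks, 118 had it at the summit only and 9 in the flank only (exact McNemar test, adjusted p = 2.25e-24), and 5.50% of open windows had it. The difference was not the same against every class of other peak. Gene-start window peaks held it in 22.0% and exon peaks in 26.8%, but intron peaks in 39.1%, and against intron peaks alone Fisher's exact test gave an adjusted p of 0.152 (unadjusted p = 0.0152), a comparison chosen after these shares were seen. X chromosome peaks that met the same location rule held it in 18 of 97 (18.6%), against which the autosomal distal peaks differed by Fisher's exact test (adjusted p = 4.63e-07), also chosen after the shares were seen. Among those X peaks 19 had a tRNA gene within 500 bp, of which 1 held GAGAGA, while 17 of the other 78 did (21.8%).

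The GAGAGA matches were short and centred. Where the sequence was present, the longest uninterrupted GA alternation had a median of 7 bases, 21 of the 119 peaks had one of at least 10 bases, and the longest had 41 bases. The match was on the plus strand alone in 50 distal peaks, on the minus strand alone in 61 and on both in 8. In 50-bp bins, 28.4% and 30.9% of distal peaks had a match just before and just after the summit, against 15.9% and 14.5% of other peaks. At 200 to 250 bp before the summit the shares were 10.2% of distal peaks and 5.60% of other peaks, and at the same distance after it 4.66% and 4.24%. The presence of GAGAGA did not follow signal: it was in 56 of 111 distal peaks above the list's median signal (50.5%) and in 63 of 125 below it (50.4%). By chromosome the share was between 39.1% on II and 60.3% on IV, with overlapping exact intervals. Near snoRNA, tRNA or microRNA genes 5 of 22 distal peaks had it, compared with 86 of 158 distal peaks away from any RNA gene (54.4%), and 4 of 16 in convergent gaps had it. These splits were not tested.

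**Figure D1:**
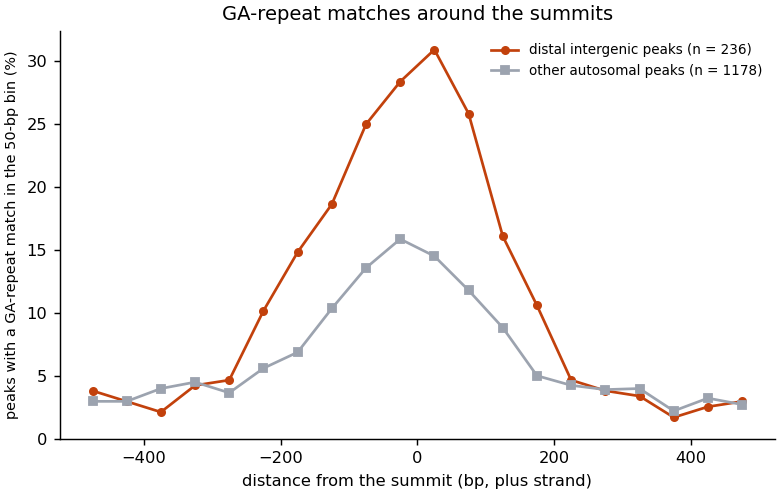
Share of peaks (%) with a GA-repeat match in each 50-bp bin, by distance from the summit in bp on the plus strand, for the 236 distal intergenic peaks (orange circles) and the 1178 other autosomal peaks (grey squares). The distal peaks reach 30.9% beside the summit, the other peaks 15.9%, and the shares are 10.2% and 5.60% at 200 to 250 bp before the summit and 4.66% and 4.24% at the same distance after it.

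Other sequences differed between distal summits and their flanks but not between distal summits and other peaks. The run AAAAAAAA was in 2 distal summit windows and 38 flank windows (exact McNemar test, adjusted p = 1.42e-09), and TATAAA, the TATA box core, in 11 and 32 (adjusted p = 0.00355). TGATAA, a sequence of GATA factors, was in 6 summit windows and 20 flank windows (exact McNemar test, adjusted p = 0.0132), while GCGCGC was in 14 and 2 (adjusted p = 0.0105). The TGATAA call was lost without replicate 2 (adjusted p = 0.216) and above the list's median signal (adjusted p = 0.299, both by the exact McNemar test). With a 2000 bp upstream window it was 0.604 by the same exact test, and that of TATAAA and of GCGCGC was 0.196. Base composition moved with these counts. The median GC content of distal summit windows was 47.5%, as it was in other peaks, while open sequence as a whole had 33.8% GC; its part in these differences was not tested. CACGTG, the E box of basic helix-loop-helix proteins, was in 4 summit and 6 flank windows, and TGTTTAC, a forkhead sequence, in 6 and 3. GTTCGA was in 11 summit and 11 flank windows. No difference between distal and other peaks passed for any of these 7 sequences within 50 bp; at 100 bp to each side GCGCGC (8.05% of distal and 14.7% of other peaks, adjusted p = 0.0217) and AAAAAAAA (4.66% and 11.7%, adjusted p = 0.00348) did, by Fisher's exact test.

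**Figure D2:**
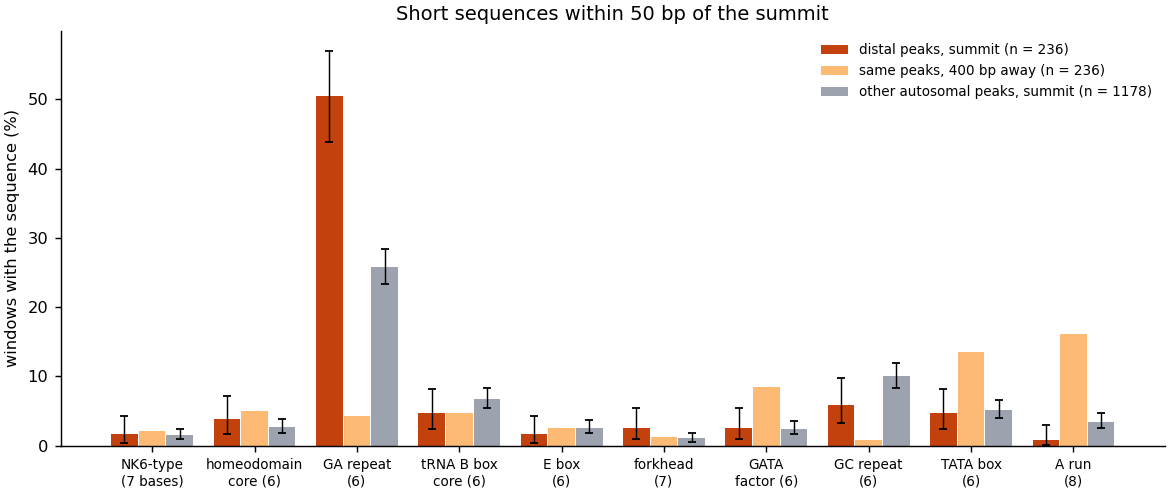
Share of windows (%) holding each of 10 short sequences within 50 bp, for the 236 distal summits (dark orange), windows 400 bp from the same summits (light orange) and 1178 other autosomal summits (grey). Bars with lines carry 95% exact binomial intervals; the GA repeat is in 50.4%, 4.24% and 25.8% of the 3 kinds of window.

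Of the 6 classes of RNA gene and pseudogene compared, snoRNA genes had the largest ratio of distal peaks to open bases beside them. Within 500 bp of a snoRNA gene lay 17 of 236 distal peaks (7.20%, 95% exact interval 4.25 to 11.3), where 0.320% of the bases open to the location rule lie that close, a ratio of 22.5 (exact binomial test, adjusted p = 4.13e-17 over 6 classes of gene). The ratio was 40.5 within 250 bp, 13.4 within 1000 bp and 39.4 among peaks above the list's median signal. The 17 peaks belonged to 15 snoRNA genes, and 16 of the summits were upstream of the gene's start. Their signal, the authors' enrichment value per region on an arbitrary scale, was between 88.8 and 489 with a median of 195, and the other 219 distal peaks had a median of 106. Of the 17, 14 were above the list's median signal, compared with 97 of the other 219 distal peaks, and 7 were among the 20 strongest. All 17 were among the 1841 strongest regions in both replicates, but not as 17 separate regions. Both peaks of C26C6.13 fell in the same region of each replicate, as did both peaks of T26A8.6.

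The strongest distal peak, rank 5 of 1841 with signal 489, lay just upstream of W03C9.9, with signal 212 in replicate 1 (rank 3) and 272 in replicate 2 (rank 6). The peak 53 bp upstream of H09I01.2 had signal 134 in replicate 1 and 142 in replicate 2. T06C12.16 had its summit 56 bp upstream, with signal 139 in replicate 1 and 137 in replicate 2. Each of these 3 genes lies between converging protein-coding genes, where no protein-coding start faces the gap. Upstream of C46C2.8 the summit was at 42 bp with signal 239 in the pooled list, upstream of F30H5.4 at 9 bp with 234, upstream of ZK643.9 at 29 bp with 217 and upstream of F32E10.10 at 31 bp with 208. The weakest of the group belonged to T26A8.6, whose 2 peaks, one upstream of its start and one beyond its end, had signal 88.8 and 104 and shared 1 region in each replicate's list.

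Most snoRNA genes had no peak nearby. Of the autosomal snoRNA genes outside protein-coding genes, 67 had no reproducible peak within 500 bp and 20 had only a peak that was not distal. Of the 212 inside or overlapping protein-coding genes, 42 had a reproducible peak within 500 bp (19.8%). No share of other autosomal peaks near snoRNA genes is given here. Of the 15 near distal peaks, W01C9.6 overlaps a protein-coding gene. TGGCNNAG was in the 150 bases before the start, read on the gene's strand, in 6 of the 15 snoRNA genes with a distal peak and in 3 of those 67 (4.48%), against 2.04% of open windows of that length. GTTCGA was there in 6 of the 15 and in 2 of the 67 (2.99%), against 2.62% of open windows, and both were present in 4 of the 15 and 1 of the 67. Among the 20 genes with only a peak that was not distal, 2 had TGGCNNAG and 2 had GTTCGA. These sequences were looked for after the neighbourhood of snoRNA genes had been seen, and the counts carry no test.

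**Figure D3:**
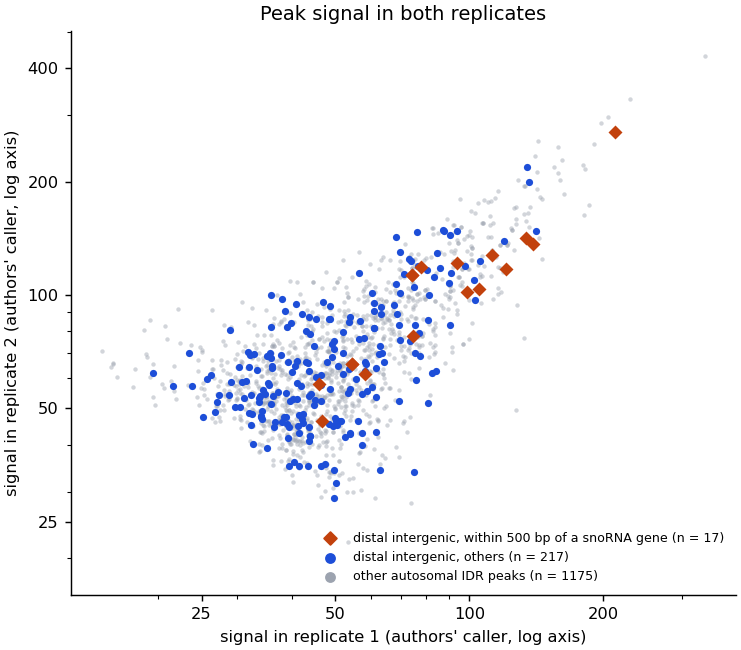
Signal in replicate 1 (horizontal) and replicate 2 (vertical) of each autosomal reproducible peak whose summit lay inside a region of both replicate lists. Both are log axes, on the scale of the authors' caller. Diamonds are the 17 distal peaks within 500 bp of a snoRNA gene, blue circles 217 other distal peaks and grey points 1175 other autosomal peaks. The diamonds of both C26C6.13 peaks coincide, as do those of both T26A8.6 peaks. The diamond at upper right is the peak upstream of W03C9.9, at 212 and 272.

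Other non-coding RNA genes were near 64 distal peaks (27.1%) where 17.6% of open bases lie that close, a ratio of 1.54 (exact binomial test, adjusted p = 0.000603). With piRNA genes left out, 48 distal peaks (20.3%) and 7.69% of open bases were that close, a ratio of 2.64 (exact binomial test, adjusted p = 1.62e-09). Of the 64 peaks, 56 were near no snoRNA, tRNA or microRNA gene, and the rest were also counted with those classes. By annotated type 44 of the 64 were ncRNA, 16 piRNA and 4 lincRNA, and 35 summits were upstream of the gene and 28 beyond its end. Among the distal peaks above the list's median signal the ratio was 1.38 and the adjusted p 0.159. Pseudogenes were near 9 distal peaks (3.81%), fewer than the 10.7% of open bases, a ratio of 0.356 (exact binomial test, adjusted p = 0.000586). Repeated sequence was also less frequent at the summits: 38 distal summits lay in soft-masked sequence (16.1%), where 44.0% of open bases are masked, and the share of other peaks was 16.6%. Its part in the count of pseudogenes was not tested. The 51 bases at the summit occurred more than once in the genome for 2 of the 236 distal peaks.

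tRNA genes, the classic RNA polymerase III genes, were within 500 bp of 3 distal peaks on the autosomes, with signals 84.5, 84.8 and 95.3, a ratio of 3.53 that did not pass (exact binomial test, adjusted p = 0.0819). By the same exact test it passed in the strongest regions of replicate 2 alone (ratio 4.41, adjusted p = 0.0205) and of replicate 1 alone (ratio 8.74), and for the same 3 peaks within 250 bp (ratio 6.48, adjusted p = 0.0174). microRNA genes were near 2 distal peaks (exact binomial test, adjusted p = 0.227): one 155 bp upstream of mir-53 with signal 152, and one 137 bp upstream of mir-80 with signal 83.5. No distal peak was near a snRNA gene, and the upper 95% bound of that share is 1.55%. The location rule takes out summits inside an exon of any gene. Peaks lying on tRNA, microRNA or snRNA genes are therefore not among these counts. In all, 78 distal peaks (33.1%) lay within 500 bp of some RNA gene and 158 did not. No share of open bases near any RNA gene is given, so the 33.1% cannot show a preference. Other non-coding RNA genes alone had 17.6% of open bases that close.

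Distal peaks were fewer in gaps between converging genes than the open sequence there. A gap between converging protein-coding genes held 16 of 236 distal peaks (6.78%), where 16.8% of open bases lie, a ratio of 0.405 (exact binomial test, adjusted p = 3.13e-05 over 3 orientations). Of those 16, 9 lay within 500 bp of a snoRNA gene and 13 within 500 bp of some RNA gene, and their median signal was 139. The shares of open bases in convergent gaps near such genes are not given, and these counts were not tested. Divergent gaps held 81 distal peaks (34.3%, against 29.7% of open bases) with a median signal of 109, and tandem gaps 139 (58.9%, against 53.5%) with a median signal of 107. Neither of these passed the exact test (adjusted p = 0.135 for each). In the part of the list above the median signal, the shortfall in convergent gaps had a ratio of 0.538 and an adjusted p of 0.0894.

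Within the sequence open to the rule, distal peaks were nearer to gene starts than the bases were. The nearest protein-coding start was at a median distance of 2171 bp, with a range of 694 to 19652 bp, and the summit lay upstream of that start in 186 of 236 peaks (78.8%). The location rule takes out gene bodies, which lie downstream of starts. No share of open bases upstream of their nearest start is given, so the 78.8% cannot show a preference of the peaks. Under 2000 bp lay 109 peaks (46.2%) and 33.7% of open bases, a ratio of 1.37 (exact binomial test, adjusted p = 0.000315 over 4 distance classes). Between 5000 and 10000 bp lay 27 peaks (11.4%) and 17.5% of open bases, a ratio of 0.656 (exact binomial test, adjusted p = 0.0256). At over 10000 bp were 5 peaks, a ratio of 0.506 (exact binomial test, adjusted p = 0.188). In replicate 2's strongest regions, without replicate 1, the exact test gave an adjusted p of 0.0618 for the class from 5000 to 10000 bp and of 0.0223 for that over 10000 bp, with ratios of 0.728 and 0.284. Among peaks above the list's median signal neither distance class passed the exact test (adjusted p = 0.0619 for under 2000 bp and 0.392 for 5000 to 10000 bp).

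The border of the rule ran through a stretch of sequence with peaks on both sides. The distal peaks nearest to it were 1006 bp upstream of cnt-1, 1018 bp upstream of F53C3.6 and 1025 bp upstream of gly-20, with signals 83.1, 141 and 116. Just inside the window were peaks 984 bp upstream of pfn-1, which encodes profilin, 962 bp upstream of taf-12, a subunit of the general transcription factor TFIID, and 960 bp upstream of otub-2, with signals 81.6, 127 and 169. From 1001 to 1200 bp upstream there were 28 distal peaks, and from 801 to 1000 bp there were 27 intergenic peaks in the window.

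By chromosome, distal peaks were denser on I and sparser on V than the open sequence. Chromosome I held 53 distal peaks (22.5%) and 15.03% of open bases, a ratio of 1.49 (exact binomial test, adjusted p = 0.00626 over 5 chromosomes). In the strongest regions of replicate 1 alone, without replicate 2, that ratio was 1.23 with an adjusted p of 0.225, and above the list's median signal it was 1.44 with an adjusted p of 0.155. Chromosome V held 34 distal peaks (14.4%) and 25.4% of open bases, a ratio of 0.568 (exact binomial test, adjusted p = 0.000248). II held 46, III 45 and IV 58, with ratios of 1.05, 1.28 and 0.940 that did not pass. For III the adjusted p was 0.136 in the reproducible list, 0.0217 in replicate 2 alone and 0.0153 in replicate 1 alone. The density was 20.3 distal peaks per open megabase on I and 7.70 on V.

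**Figure D4:**
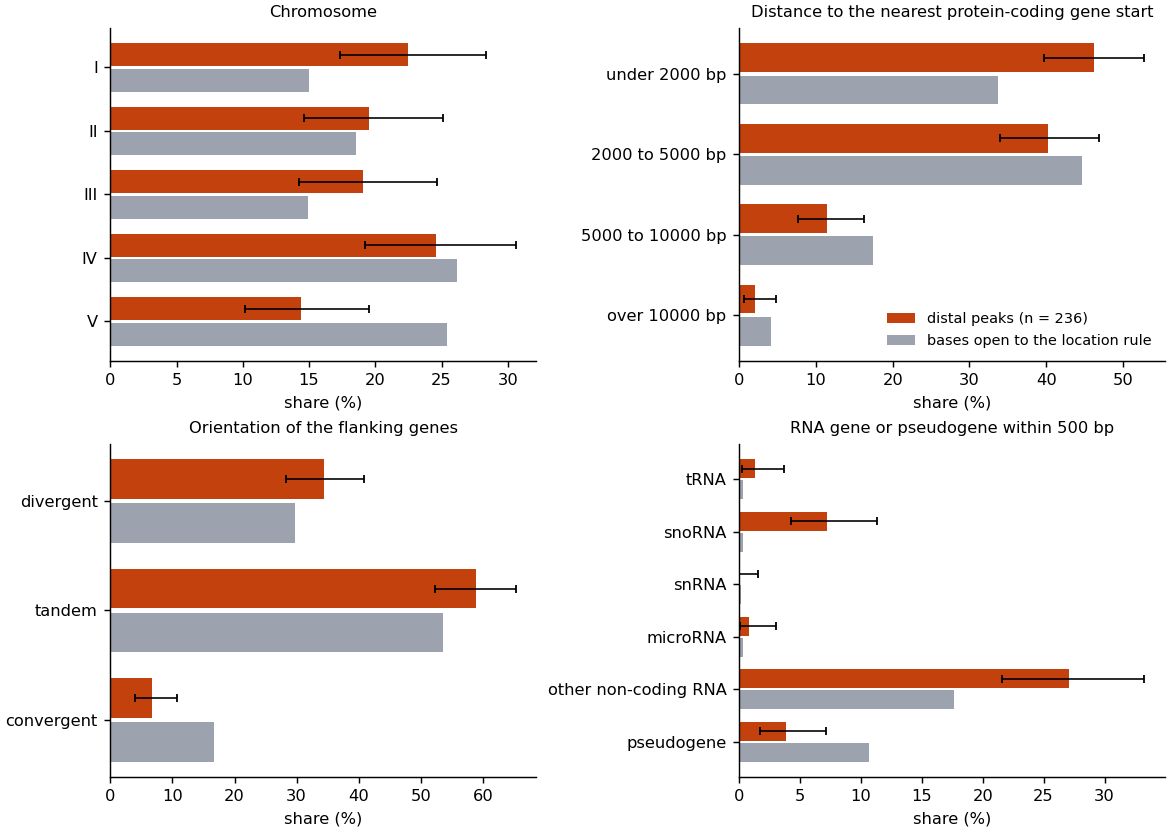
Shares (%) of the 236 distal peaks (orange, with 95% exact binomial intervals) and of the bases open to the location rule (grey) by chromosome, distance to the nearest protein-coding gene start, orientation of the flanking genes, and class of RNA gene or pseudogene within 500 bp. snoRNA genes are near 7.20% of peaks and 0.320% of bases, and convergent gaps hold 6.78% of peaks and 16.8% of bases.

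The median signal of the distal peaks was close to that of other autosomal peaks, and the highest signals belonged to other peaks. Their signal had a median of 108, with an interquartile range of 88.2 to 141 and extremes of 77.7 and 489, and that of the other autosomal peaks had a median of 110 and a maximum of 769. Above the list's median signal were 111 distal peaks (47.0%, 95% exact interval 40.5 to 53.6), compared with 578 of 1178 other peaks (49.1%) and 48.7% of all autosomal peaks, by Fisher's exact test p = 0.618. Among the 100 strongest peaks of the list were 7 distal peaks (2.97%) and 61 other autosomal peaks (5.18%), a split that was not tested. In replicate 1 the distal peaks' signal had its lowest value at 19.5, its median at 48.6 and its highest at 212, and in replicate 2 at 28.9, 64.2 and 272. Of the autosomal candidate regions in the pooled list, 4346 were distal by the same rule, and 236 of these were reproducible (5.43%), below the 7.88% of all autosomal candidates and above the 4.24% of intron candidates.

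Every distal peak had its summit inside a region of the replicate 1 list, and 234 had it inside one of the replicate 2 list. Among the 1841 strongest regions of both replicates were 153 distal peaks (64.8%, 95% exact interval 58.4 to 70.9), compared with 813 other peaks (69.0%) and 68.3% of all autosomal peaks, by Fisher's exact test p = 0.220. Another 32 were among the strongest of replicate 1 only, 48 of replicate 2 only and 3 of neither. The comparisons of strength and support depended on the replicate: in replicate 2's strongest regions taken alone, without replicate 1, the distal minus other difference in the share above the median was -8.62 points (Fisher's exact test, p = 0.0150), and that in the share also among the strongest of replicate 1 was -9.22 points (p = 0.00599). Across the distal peaks the ranks in both replicates had a Spearman correlation of 0.54, as a description, since all points share the libraries. A test over peaks measures counting error over peaks of 1 strain, not variation between cultures.

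The strongest distal peaks away from snoRNA genes lay beside protein-coding genes of several functions, though some summits were closer to another RNA gene or a pseudogene. A peak 2061 bp upstream of sup-26, which encodes an RNA-binding protein, had signal 356 in the pooled list, 135 in replicate 1 and 219 in replicate 2. Its rank was 48 in replicate 1 and 15 in replicate 2. The peak shown above at mtm-3, a myotubularin family phosphatase gene, was 1083 bp upstream of the start and had signal 141 in replicate 1 and 148 in replicate 2. Upstream of gpb-1, the gene of a G protein beta subunit, a peak at 1268 bp had signal 87.2 in replicate 1 and 149 in replicate 2. Between sam-10 and mrpl-20, a mitochondrial ribosomal protein gene, the peak had signal 90.3 in replicate 1 and 145 in replicate 2. A peak 1125 bp upstream of casc-3 had signal 84.4 in replicate 1 and 129 in replicate 2. The peak shown above at sgn-1 had signal 120 in replicate 1 and 139 in replicate 2, and that at C33D9.13 had 87.6 in replicate 1 and 148 in replicate 2. In the pooled list a peak between srt-44 and M199.2 had signal 228, one between T19C3.4 and T19C3.5 had 217, and one 3246 bp upstream of egl-26, a gene of vulval development, had 211. The casc-3 summit was 59 bp upstream of the ncRNA gene W08E3.5, and that between T19C3.4 and T19C3.5 was 1 bp upstream of T19C3.11. The gpb-1 summit was 289 bp upstream of F44E5.14, and the sgn-1 summit 166 bp upstream of a pseudogene. Between srt-44 and M199.2 the summit was 163 bp beyond a piRNA gene. The peaks at sup-26, mtm-3, sam-10, C33D9.13 and egl-26 had no RNA gene or pseudogene within 500 bp. Of the 20 strongest, 8 held GAGAGA and 7 were near snoRNA genes.

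A few gaps held several distal peaks. The 236 peaks were spread over 216 gaps, 200 of them with 1 peak, 13 with 2, 2 with 3 and 1 with 4. The gap between the divergent genes F54F12.1 and Y39E4B.6 spans 15313 bp on chromosome III and had 4, with signals 129, 328, 79.8 and 221. Its strongest peak ranked 45 in replicate 1 and 26 in replicate 2, and its weakest ranked 1023 in replicate 1 and 2906 in replicate 2, outside the 1841 strongest of that replicate. Between rho-1, which encodes the RhoA GTPase, and zip-7, a bZIP factor gene, 3 peaks had signals 133, 195 and 203, and all 3 held GAGAGA. Between K08F11.1 and fbxb-78 there were 3 peaks of signal 110, 109 and 110, of which the one farthest from K08F11.1 had summit sequence present 5 times in the genome and the other 2 overlapped each other. The summit nearest to K08F11.1 lay in no region of the replicate 2 list. Over the distal peaks the median gap length was 5734.5 bp, against 2293 bp over all gaps with open bases. Longer gaps hold more open bases, so these medians cannot show a preference of the peaks for long gaps.

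**Figure D5:**
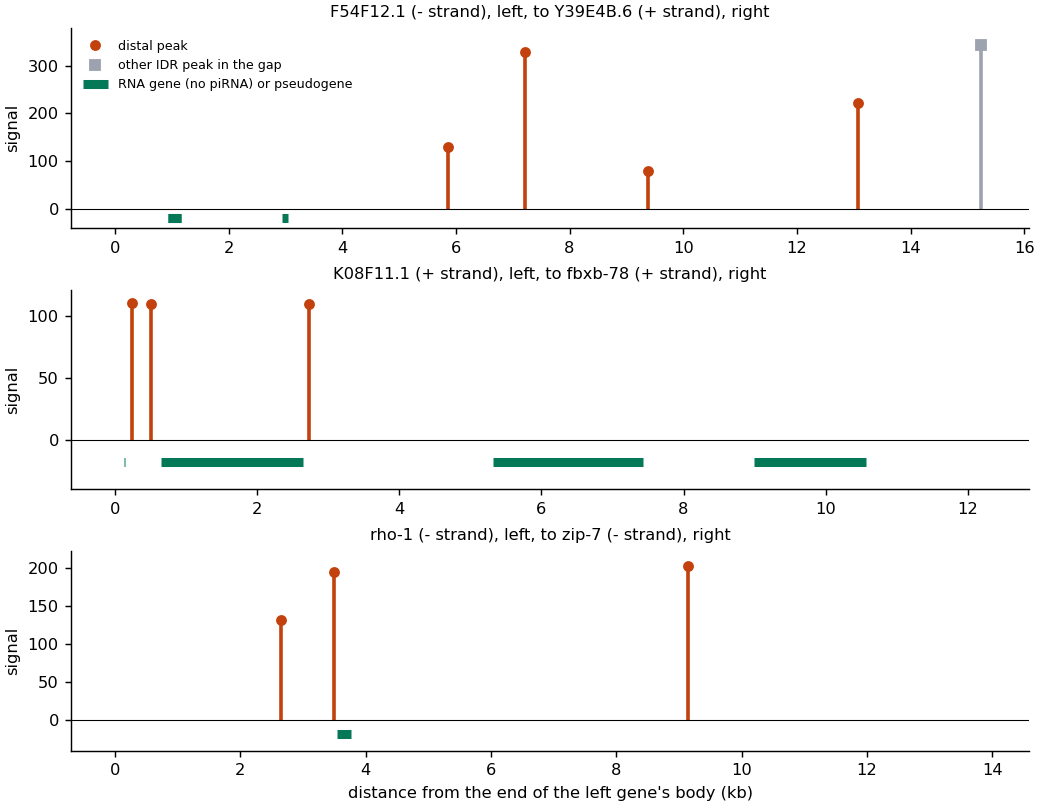
Signal of each reproducible peak (vertical axis, authors' scale) by distance in kb from the end of the left gene's body, in the 3 gaps with 3 or more distal peaks. Orange circles are distal peaks, the grey square is a peak in a gene-start window, and green bars are RNA genes or pseudogenes, with piRNA genes left out; the 4 distal peaks beside F54F12.1 have signals 129, 328, 79.8 and 221.

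The farthest distal peak from any protein-coding start was 19652 bp from the nearest one, in the gap beside jac-1, a catenin gene, with signal 107, and the next were 16179 bp from Y23H5B.5 (signal 153, 2 bp upstream of the snoRNA gene Y23H5B.10) and 15095 bp upstream of zfh-2 (signal 92.5). The zfh-2 gene encodes a zinc finger homeodomain protein, and its distal peak held both TTAATTA and GAGAGA. Peaks at 11624 bp from K01F9.2 and 10253 bp from tol-1, the Toll-like receptor gene, had signals 83.5 and 87.5. The K01F9.2 peak is the one described above at mir-80, 137 bp upstream of that gene. The zfh-2 summit was 54 bp beyond the ncRNA gene T06A4.7, and the summit beside jac-1 was 52 bp beyond a piRNA gene.

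Among nearest genes, regulators of transcription were a small share. The nearest start belonged to a homeobox gene for 3 distal peaks (1.27%), against 0.594% of other peaks and 1.24% of open bases. They were irx-1, an Iroquois family gene, with signal 75.2 in replicate 1 and 105 in replicate 2, ceh-48, a ONECUT family gene, with 39.0 and 66.2, and zfh-2 with 30.3 and 64.3. Nuclear receptor genes were nearest to 5 distal peaks (2.12%, against 0.764% of other peaks and 1.98% of open bases), the strongest being at nhr-61 with signal 139, nhr-88 with 133, nhr-10 with 103 and nhr-21 with 85.3. Basic helix-loop-helix genes were nearest to 2 (0.847%), against 0 of the other peaks and 0.534% of open bases. They were hif-1, the hypoxia-inducible factor, with signal 195, and hlh-2, the partner of many such proteins, with signal 80.0. C2H2, T-box and GATA regulators were nearest to 4 distal peaks (1.69%), against 0.424% of other peaks and 1.07% of open bases: ztf-6 had 2 distal peaks, at signals 115 and 84.2, and ztf-27 and egl-46 had 1 each.

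Chemoreceptor genes, a large family in C. elegans, were nearest to 3 distal peaks (1.27%), against 0.594% of other peaks and 5.88% of open bases. They were str-56 with signal 278, sre-47 with signal 132, and src-1, a kinase gene that the list holds by its symbol alone, with signal 109. The str-56 peak is the one described above at the snoRNA gene T06C12.16. Its summit was 56 bp upstream of that gene and 1409 bp downstream of the str-56 start. Ribosomal protein genes were nearest to 1, rps-25 at 5645 bp with signal 96.3 (0.424%), against 2.72% of other peaks and 0.256% of open bases. Chaperone genes were nearest to 1 (0.424%), against 0.594% of other peaks and 0.181% of open bases. It was hsp-12.1, a small heat shock protein gene, with signal 208, 91.1 in replicate 1 and 115 in replicate 2. No distal peak had a collagen or histone gene as its nearest start, against 5 and 7 of the other peaks and 0.652% and 0.0874% of open bases. A nearest start is a position only, and none of the lists was tested.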

How the data were processed

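The authors deposited ce11 lists of candidate regions for each of 2 replicates (21617 regions in replicate 1 and 20247 in replicate 2) and for pooled replicates (22583), and a thresholded list from irreproducible discovery rate (IDR) comparison (1841). The deposited lists give a signal value per region, which is the authors' own, and a −log10 q-value, which gave no result here. The aligner, the peak caller, the IDR threshold and the read depth are not given in the sources used here, so no interval covers read sampling. The ce10 lists were not used.

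Each summit was placed on the Ensembl 115 annotation of WBcel235 with Python 3.11.15, pandas 2.3.3 and scipy 1.17.1. Distal peaks were compared with other autosomal peaks by Fisher's exact test, with their own flanks by the exact McNemar test, and with all 17406971 bases open to the location rule by exact binomial tests. All were 2-sided, with Benjamini-Hochberg adjustment within each family at 0.05 and exact Clopper-Pearson intervals. The Fisher, McNemar and binomial tests were tested on simulated peaks drawn independently of each other. Those draws do not cover peaks that overlap or share a gap. Open bases were not corrected for mappability. Peaks sharing a gap are not independent, and 12 distal peaks overlapped another reproducible peak. Members, lists and sequences were chosen with earlier results of these data known. Named peaks were taken from the 20 strongest, the 5 farthest, gaps with 3 or more, those at the 1000 bp limit, those near small RNA genes, those with TTAATTA or GTTCGA, and up to 4 per gene list. Short sequences were searched on both strands. Alternatives included each replicate's own strongest regions, the list above its median signal, a 2000 bp window, other window lengths and other reference peaks.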

Additional observations from a re-analysis of the deposited data

How the results depend on the processing

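Over the alternatives 341 values were recomputed. Of these 274 kept direction and side of the threshold (counts within 1.5 times), 14 fell below the threshold, 13 passed it, 12 moved and 28 changed sign, all but 1 of the 28 without passing the threshold either way. With 1 replicate's strongest regions in place of the reproducible list, the number of distal peaks was 252 and 254, the difference in the share above the median signal between -8.62 and -3.38 points, that in replicate support between -9.22 and -5.74 points, and the number of orientations passing 2 and 1. Above the list's median signal there were 111 distal peaks, 1 chromosome passed, and 0 orientations and 0 distance classes did; fewer peaks entered each test. With a 2000 bp upstream window there were 138 distal peaks, 2 sequences passed against the flank, and 2 orientations and 0 distance classes passed. The difference for the class under 2000 bp turned to -2.09 points, with 7.97% of distal peaks and 10.1% of open bases left in that class. Searching 100 bp to each side, 3 sequences passed against other peaks. With intron peaks as the reference 0 sequences did by Fisher's exact test (1 had an unadjusted p under 0.05), and the difference in strength was 7.03 points and that in replicate support 1.72. Without peaks near tRNA, snoRNA, snRNA or microRNA genes 2 orientations passed, tandem gaps being added with a ratio of 1.15. The cause of these changes was not tested.

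The other changes of sign were of differences that did not pass, in points. Without replicate 1 they were TTAATTA against other peaks (-0.0366) and snRNA genes (0.632). Without replicate 2 they were CACGTG (0.603, and -0.836 without replicate 1) and TATAAA (0.479, and -0.958) against other peaks, TTAATTA (0.787) and CACGTG (0.394, and -1.59) against the flank, chromosome IV (0.227, and -5.12) and snRNA genes (0.625). Above the median signal they were CACGTG (1.18), TGTTTAC (-0.310) and TGATAA (-0.101) against other peaks, CACGTG (0.901) and TGTTTAC (-0.901) against the flank, and tRNA genes (-0.360). With the 2000 bp window they were CACGTG against other peaks (0.469), TTAATTA (2.17) and CACGTG (0.725) against the flank, and the class of 2000 to 5000 bp (8.25). At 100 bp to each side they were TTAATTA (-0.940), TAATTA (-1.71) and TGATAA (-2.81). Against intron peaks they were TTAATTA (-0.0829) and TGATAA (-0.569), and against X distal peaks TGATAA (-4.67) and GCGCGC (0.778).

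GAGAGA against the flank and against other autosomal peaks, snoRNA genes and chromosome V passed under each alternative computed for them, apart from the intron reference for GAGAGA.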

Other observations

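Among all 2080 words of 6 bases, counted with their reverse complements, GAGAGA had the largest gain of distal summits over their flanks and also over other autosomal peaks. Next in the comparison with the flanks came words that overlap it or each other, such as AGAGAC in 32.2% of distal summit windows and 21.5% of windows of other peaks, CGTCTC in 28.8% and 21.1%, ACGCAG in 27.5% and 19.0%, and GACGCA in 25.8% and 19.4%. The words most depleted at distal summits were AT-rich, AAAATT being in 6.78% of distal summit windows, against 56.8% of windows on one flank and 49.6% on the other. These words were ranked after the data had been seen and carry no test.

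The distal peaks with GAGAGA had a median signal of 108 and those without it 109, and the median GC content of their windows was 48.5% and 46.5%. The summit lay in soft-masked sequence in 22 of the 119 peaks with GAGAGA.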
